A study of Rattus norvegicus with 119 samples.

Results

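Rspo2, Rspo3 and Sfrp1 are 3 secreted modulators of Wnt signalling, and they were taken by their Ensembl identifiers from the 32662 genes in each count table. They were ENSRNOG00000037687 for Rspo2, ENSRNOG00000011568 for Rspo3 and ENSRNOG00000017783 for Sfrp1. The study compared the ventral mesenchymal pad (VMP), a condensed mesenchyme of the female urogenital sinus that can support prostate growth, with the adjacent urethra (SU), which held urethral epithelium, smooth muscle and the mesenchyme around the urethra. All samples came from female Wistar rats on the day of birth, postnatal day 0, with no treatment or transgene, and tissues of many animals were pooled. Tag-seq, which reads a short tag per transcript, was made from microdissected tissue, with 1 library per tissue. RNA-seq was made from collagenase-dissociated cells, again with 1 library per tissue, and the epithelium was removed from SU at that step. Single cells caught with the Fluidigm C1 system (scRNA-seq) gave 49 VMP cells and 66 SU cells. The cells of a tissue came from 1 pool and were therefore treated as 1 sample. For VMP the study's account gives more cells captured and sequenced, and the same 49 after its quality control. For SU it gives fewer than 66 cells, both sequenced and after quality control. Which cells make up the difference is unknown, as is whether the deposited VMP and SU cells were filtered alike. Each share of cells below is therefore over the deposited cells as labelled.

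Wnt ligands bind a Frizzled receptor together with Lrp5 or Lrp6, and this stabilises beta-catenin, which activates transcription with the Tcf and Lef factors. R-spondins such as Rspo2 and Rspo3 bind Lgr receptors and remove the ubiquitin ligases Rnf43 and Znrf3 from the membrane, so that more Frizzled stays at the surface and the cell answers more strongly to Wnt. Sfrp1 is a secreted Frizzled-related protein, which binds Wnt ligands outside the cell and is best known as an inhibitor. In the developing urogenital tract mesenchymal Wnt modulators act on the adjacent epithelium, and R-spondins and Sfrp1 have been described in the mesenchyme that instructs prostate buds.

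The libraries held between 4397699 and 8215177 counts on genes in the bulk assays and between 199849 and 1488320 counts in the single cells. The mesenchymal list, with 6 of 8 markers matched, was high in every cell. Its summed level was between 3687 and 25882 CPM (counts scaled to a common total of gene counts) in VMP cells and between 5115 and 60937 CPM in SU cells. Of 6 matched epithelial markers, Cdh1 was at 0 in all cells, and the list's median was 0 CPM in both tissues, with a maximum of 5.28 CPM in VMP cells and 103 CPM in SU cells. In Tag-seq the epithelial list summed to 397 CPM in VMP and 7510 CPM in SU, and in RNA-seq to 7.05 and 146 CPM. The sum of the 2 matched endothelial markers, Cdh5 and Kdr, was higher in VMP in both assays. It was 386 against 113 CPM in SU by Tag-seq and 508 against 152 CPM by RNA-seq. Summed over single cells, Kdr was higher in VMP (270 against 52.9 CPM) but Cdh5 was higher in SU (173 against 40.5 CPM). Kdr was found in all 49 VMP cells, so the sum is not read as a share of endothelial cells. Only markers that the study had listed as differentially expressed could be matched. The mesenchymal list summed to 45704 and 22980 CPM by Tag-seq and, in the other order, to 22018 and 50223 CPM by RNA-seq. The skeletal muscle list was higher in SU, with 85.9 and 269 CPM in VMP and SU by Tag-seq and 6.82 and 256 CPM by RNA-seq. Des, the only smooth muscle marker matched, was higher in VMP, with 575 and 502 CPM by Tag-seq and 143 and 28.4 CPM by RNA-seq. The part of these cell types in the bulk differences between VMP and SU was not tested. There were 33 capture-site numbers used in both tissues, and no cell had the same counts as another. Site numbers were repeated between the tissues but not within one, so VMP and SU cells did not share 1 chip run. Tissue and capture run therefore cannot be told apart in any single-cell difference between VMP and SU.

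In the Rnor_6.0 positions given in the study's tables, Rspo2 lies on chromosome 7 (81924050 to 82059789), Rspo3 on chromosome 1 (30681681 to 30766860) and Sfrp1 on chromosome 16 (73372007 to 73410777). The reference promoter table (RefSeq, build GRCr8) held 1 of the 3 genes, Rspo3, and the 250 bases before its start are shown because it was higher in VMP together with Rspo2 and Sfrp1. They are chr1:30112279-30112528, plus strand, in lower case, with the match to the GC-box motif CCGCCC, the reverse of GGGCGG, in capitals.
Rspo3: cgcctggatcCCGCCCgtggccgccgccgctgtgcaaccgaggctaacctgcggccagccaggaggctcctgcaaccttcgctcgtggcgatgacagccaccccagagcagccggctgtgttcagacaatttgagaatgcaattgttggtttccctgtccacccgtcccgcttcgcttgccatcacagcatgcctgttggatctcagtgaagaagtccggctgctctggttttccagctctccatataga
GGGCGG on either strand was found in 30.5% of the 33469 promoter windows of this length. The Tcf and Lef core motif was searched as CTTTGAT, found in 3.15% of windows, and as CTTTGAA, found in 4.68%, and neither was present in the Rspo3 window on either strand. ATTGG, the core of the CCAAT box, was found in 34.02% of windows and was not present for Rspo3.

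Both activators and the inhibitor were higher in VMP than in SU in each of the 3 assays. Rspo2 had 1348 counts in VMP and 188 counts in SU by Tag-seq, equal to 171 and 22.9 CPM. By RNA-seq it had 664 and 22 counts, equal to 151 and 3.14 CPM. Summed over single cells it had 4422 counts in VMP and 895 counts in SU, equal to 148 and 20.2 CPM. The VMP value was higher than the SU value in all 3 assays, and the SU value was based on the fewest counts in RNA-seq. The 95% Poisson intervals of VMP and SU did not overlap in any assay for any of the 3 genes. These intervals cover counting error only, and in the summed cells they leave out the spread between cells. The share of all genes with intervals apart was not counted, so the gap is not read as particular to these genes.

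Rspo3 had 872 and 157 counts in VMP and SU by Tag-seq, which is 111 and 19.1 CPM. By RNA-seq it had 675 and 125 counts, which is 153 and 17.8 CPM. In the summed cells it had 933 and 36 counts, which is 31.3 and 0.814 CPM. The 95% Poisson interval of the 66 SU cells together was 0.570 to 1.127 CPM. Sfrp1 had 6016 and 985 counts by Tag-seq, which is 764 and 120 CPM. By RNA-seq it had 181 and 14 counts, which is 41.2 and 2.00 CPM, and in the summed cells 1363 and 358 counts, which is 45.7 and 8.10 CPM. A tag count and a full-length read count scale differently with transcript length, so the CPM of a gene are given side by side and only the VMP to SU ratios are compared across assays. Fewer cells expressing a gene and less RNA per cell cannot be told apart in the bulk libraries.

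On the log2 scale the Tag-seq ratio of VMP over SU was 2.77 for Rspo2 (95% counting interval 2.55 to 3.003), 2.40 for Rspo3 (2.16 to 2.66) and 2.54 for Sfrp1 (2.45 to 2.64). The RNA-seq log2 ratios were 5.34 (4.76 to 6.06), 2.89 (2.61 to 3.18) and 4.10 (3.37 to 5.05) in the same order. In both assays all 3 genes passed as higher in VMP by the NOISeq scheme without replicates, in which q is a rank against simulated noise and not a p-value, at q of at least 0.9. This scheme called 8.65% of 12191 tested genes higher in VMP in Tag-seq, 10.5% of 17527 in RNA-seq, and 1.93% of the 11273 genes tested in both in the 2 assays together, beside 3.2% higher in SU in both. By size of the Tag-seq log2 ratio Rspo2, Sfrp1 and Rspo3 ranked 134th, 173rd and 215th of 12191 genes. In RNA-seq they ranked 306th, 928th and 1624th of 17527. The rank of Rspo3 was thus lower in RNA-seq although its log2 ratio was larger.

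There was no replicate of a tissue within an assay, so the only fits across all genes took the assay as a block, with the disagreement between Tag-seq and RNA-seq as the spread. In edgeR's quasi-likelihood fit Rspo2 was the 1 gene called higher in VMP (0.00887% of 11273, beside 0.337% higher in SU), with a log2 ratio of 4.02 and a Benjamini-Hochberg adjusted p of 0.0386. Sfrp1 (log2 ratio 3.28, edgeR adjusted p = 0.0513) and Rspo3 (log2 ratio 2.67, edgeR adjusted p = 0.0634) did not pass the threshold of 0.05. The DESeq2 fit, which called 0.805% of 11054 genes higher in VMP, called all 3. Its log2 ratios were 4.04 with a standard error of 0.707 for Rspo2 (DESeq2 adjusted p = 4.41e-06), 2.67 with 0.588 for Rspo3 (adjusted p = 0.00071) and 3.28 with 0.605 for Sfrp1 (adjusted p = 1.82e-05). The calls of Rspo3 and Sfrp1 therefore depended on the tool.

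How the activators moved against the inhibitor was read from the ratio of 2 genes' VMP to SU ratios, which needs no scaling of the libraries. In Tag-seq the Rspo2 ratio was 1.17 times that of Sfrp1 (95% counting interval 0.992 to 1.39), and the Rspo3 ratio was 0.909 times that of Sfrp1 (0.756 to 1.10). Both intervals held 1, so that in whole tissue a difference between activator and inhibitor was not detectable at this depth. In RNA-seq of dissociated cells the Rspo2 ratio was 2.33 times that of Sfrp1 (1.08 to 4.88) and the Rspo3 ratio 0.418 times (0.217 to 0.7501). In the summed single cells the values were 1.30 (1.1283 to 1.49) for Rspo2 and 6.80 (4.77 to 9.97) for Rspo3. These single-cell values rested on few cells. Without the highest cell of each tissue for either gene they were 1.88 (1.59 to 2.23) for Rspo2 and 79.98 (21.8 to 666) for Rspo3, where 2 SU counts of Rspo3 were left, and without the 2 highest the Rspo2 value was 6.47 (5.08 to 8.27). By these values Rspo2 had a larger ratio than Sfrp1 in both assays of dissociated cells, while Rspo3 stood below Sfrp1 in RNA-seq and above it in the cells. The single-cell intervals take each read as independent, and those of Rspo2 with and without the highest cells did not overlap. The single-cell part is therefore a description of these cells only. The 2 activators also differed from each other. The Rspo2 ratio was 1.29 times the Rspo3 ratio in Tag-seq (1.02 to 1.63), 5.58 times in RNA-seq (3.48 to 9.35) and 0.191 times in the cells (0.132 to 0.268), or 0.022 times (0.0027 to 0.0818) without the highest cells. These intervals hold no error between animals or pools and, in the summed cells, none between cells.

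In single cells Rspo2 was the most widely detected of the 3 genes in VMP. It had at least 1 count in 47 of 49 VMP cells, a share of 95.9% (95% Clopper-Pearson interval 86.02 to 99.5), and in 29 of 66 SU cells, a share of 43.9% (31.7 to 56.7). Sfrp1 was detected in 39 of 49 VMP cells, 79.6% (65.7 to 89.8), and in 39 of 66 SU cells, 59.1% (46.3 to 71.0). Rspo3 was detected in 19 of 49 VMP cells, 38.8% (25.2 to 53.8), and in 2 of 66 SU cells, 3.03% (0.369 to 10.5). With 1 pool per tissue these intervals do not cover the spread between animals, and no test between tissues was made from them.

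Single counts were also read for genes of other cell types. Of the epithelial markers, which these mesenchymal cells should lack, Epcam had 1 count in 5 of 49 VMP and 8 of 66 SU cells and reached 5 counts in no cell, and Krt8 reached at most 2 counts in 10 of 49 VMP cells. In SU, Krt15 was found in 6 cells with up to 149 counts, 2 of them with at least 5, Krt5 in 1 cell with 55 counts and Krt18 in 1 cell with 4. By comparison, 4 VMP and 13 SU cells held exactly 1 count of Rspo2, 9 and 0 cells exactly 1 count of Rspo3, and 5 and 16 cells exactly 1 count of Sfrp1. With at least 5 counts required, Rspo2 was found in 33 VMP and 8 SU cells, Sfrp1 in 24 and 13, and Rspo3 in 9 and 1. After thinning each cell to the 199849 counts of the shallowest one, at least 1 count of Rspo2 was left in 40 VMP and 17 SU cells, of Sfrp1 in 33 and 20, and of Rspo3 in 14 and 1. The share with each gene stayed higher in VMP at each of these settings.

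**Figure D1:**
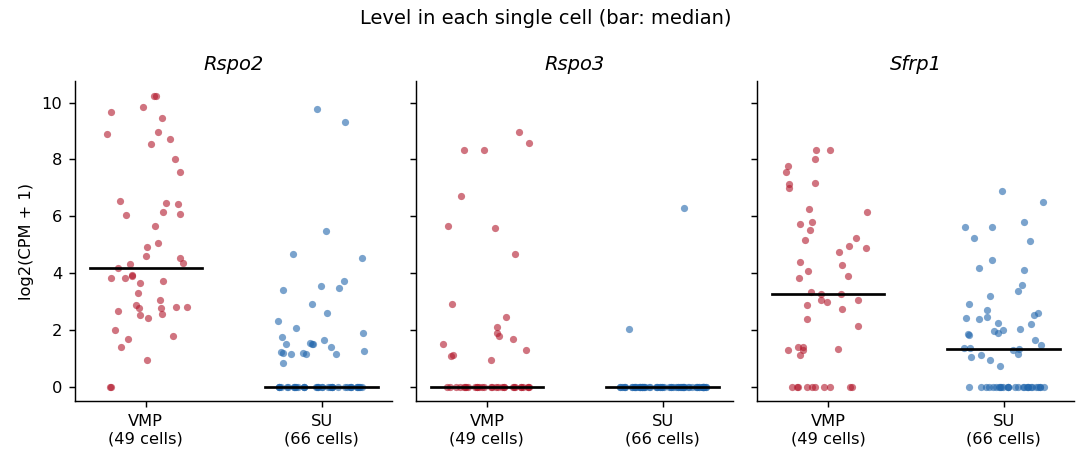
Level of each gene in each of the 49 VMP and 66 SU cells as log2(CPM + 1), with the median as a bar. Rspo2 reaches 1215 CPM in VMP and 886 CPM in SU, Sfrp1 322 and 118 CPM, and Rspo3 lies at 0 in 30 of 49 VMP cells and 64 of 66 SU cells.

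The level of Rspo2 per cell was uneven. Its median was 17.3 CPM in VMP, with quartiles of 5.79 and 86.6 CPM and a maximum of 1215 CPM, and in SU the median was 0 CPM and the maximum 886 CPM. In VMP 12 cells held at least 50 counts, a limit chosen after the values were seen, and they ran from 54 to 787 counts with a median of 330.5. The other 37 VMP cells held at most 39 counts, and 35 of them had at least 1. In SU 2 cells held 433 and 345 counts, the next highest held 24, and the 2 cells together held 86.9% of the SU counts of Rspo2. Without the 2 highest cells of each tissue, the summed level was 109 CPM in VMP and 2.71 CPM in SU and the log2 ratio rose from 2.87 (2.77 to 2.98) to 5.33.

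Rspo3 was carried by few cells. The 5 VMP cells with at least 50 counts held 309, 220, 149, 112 and 55 counts, or 90.6% of the VMP counts, and the next highest held 35. Among all 7326 genes with at least 500 summed counts in VMP, the 5 highest cells held a median of 82.1% of a gene's counts (quartiles 61.3 and 95.3), so the concentration of Rspo3 was within the middle range of genes, and Rspo2 at 58.98% and Sfrp1 at 59.4% lay below it. In SU 1 cell held 34 of the 36 counts of Rspo3 and another held 2. The summed log2 ratio was 5.25 (4.78 to 5.79), and without the highest cell of each tissue, with 624 counts left in VMP and 2 in SU, it was 8.56 (7.02 to 11.9). No SU cell had 50 counts of Rspo3, and 0 of 66 cells allows a share of up to 4.55% by the limit of 3 counts, or 5.44% by the Clopper-Pearson interval.

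The median level of Sfrp1 was 8.68 CPM in VMP cells (quartiles 1.47 and 45.1, maximum 322) and 1.49 CPM in SU cells (quartiles 0 and 4.68, maximum 118). In VMP 9 cells held at least 50 counts, from 51 to 271, and in SU 1 cell did, with 92. The summed log2 ratio of VMP over SU was 2.496 (2.33 to 2.67), and 2.63 without the 2 highest cells of each tissue. It was the smallest of the 3 summed ratios and the one least moved by single cells. All 3 log2 ratios were above 1.5, as were those of 10.3% of the 10150 genes detected in at least 20 of all cells, and Rspo3, Rspo2 and Sfrp1 ranked 24th, 222nd and 329th among these genes.

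Most VMP cells held an activator and the inhibitor together when 1 count sufficed. All 3 genes were detected in 15 VMP cells, Rspo2 with Sfrp1 but without Rspo3 in 23, Rspo2 with Rspo3 but without Sfrp1 in 4, Rspo2 alone in 5, Sfrp1 alone in 1, and none of them in 1. Thus 38 of 49 VMP cells, 77.6%, held Sfrp1 with at least 1 of the R-spondins, and in SU 21 of 66, 31.8%, did. Sfrp1 was held by 38 of the 47 VMP cells with Rspo2 and by 1 of the 2 without it. With so few VMP cells lacking Rspo2, the VMP share cannot show whether activator and inhibitor went together. In SU, Sfrp1 was held by 20 of the 29 cells with Rspo2 and by 19 of the 37 without it, and this difference was not tested. Every one of the 19 VMP cells with Rspo3 also held Rspo2, as did 28 of the 30 VMP cells without Rspo3. This full overlap was seen at 1 count and full depth only. After thinning to the shallowest depth, 10 of 14 VMP cells with Rspo3 held Rspo2 (71.4%), against 30 of the 35 without Rspo3 (85.7%). In SU the commonest combination was Rspo2 with Sfrp1, in 20 cells, followed by Sfrp1 alone in 18, none in 17 and Rspo2 alone in 9. The 2 SU cells with Rspo3 had no Rspo2, and 1 of them held Sfrp1.

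The combinations thinned out as more counts were required. At 5 counts, 23 VMP cells and 1 SU cell held Sfrp1 with an R-spondin, 15 VMP and 8 SU cells held an R-spondin without Sfrp1, and 10 and 45 cells held none of the 3 genes. At 50 counts, 16 VMP cells held an R-spondin and 3 of these also held Sfrp1, while 6 further VMP cells held Sfrp1 alone. In 1 VMP cell all 3 genes passed 50 counts, with 407 of Rspo2, 309 of Rspo3 and 57 of Sfrp1. In SU no cell passed 50 counts for more than 1 of the genes. The number of VMP cells with both an R-spondin and Sfrp1 was thus 38, 23 and 3 as the limit rose from 1 to 5 to 50 counts.

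**Figure D2:**
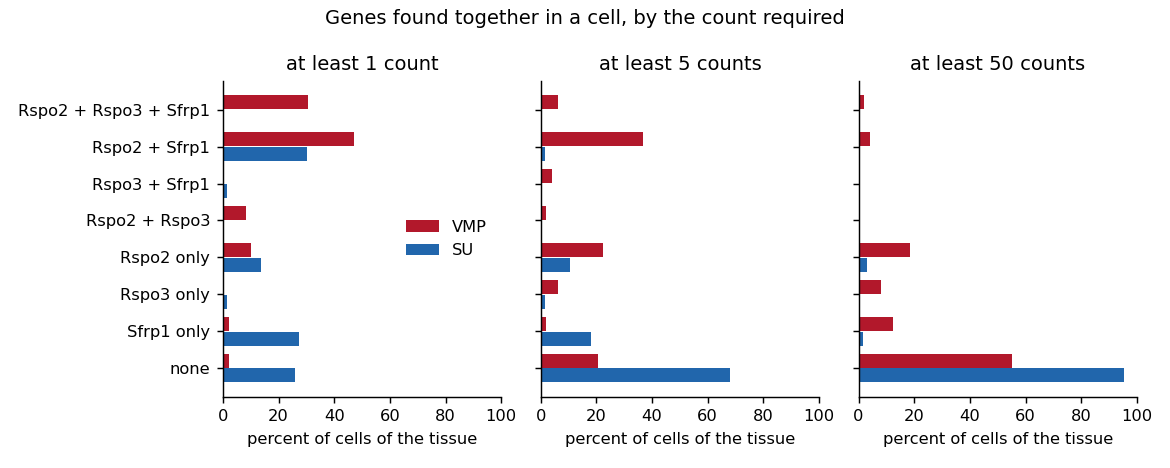
Percent of VMP (red) and SU (blue) cells with each combination of the 3 genes when 1, 5 or 50 counts are required. The combination of Rspo2 with Sfrp1 is found in 23 VMP and 20 SU cells at 1 count, in 18 and 1 at 5 counts, and in 2 and 0 at 50 counts.

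At the limit of 50 counts, the VMP cells high in one gene were mostly not those high in another. Of the 12 VMP cells with at least 50 counts of Rspo2, 3 (25.0%) also had 50 counts of Sfrp1, against 6 of the other 37 (16.2%). Of the 5 with at least 50 counts of Rspo3, 1 also had 50 counts of Rspo2, against 11 of the other 44, and 1 also had 50 counts of Sfrp1, against 8 of the other 44. At 50 counts the shares in high and other cells lay close together, and with so few cells no order was read from them. At 5 counts, 21 of 33 VMP cells with Rspo2 also held Sfrp1 (63.6%), against 3 of the 16 without Rspo2 (18.75%). Of the 9 VMP cells with Rspo3 at 5 counts, 5 held Sfrp1 (55.6%), against 19 of the other 40 (47.5%). Rspo2 at 5 counts was held by 4 of those 9 (44.4%), against 29 of the other 40 (72.5%). These shares were not tested. The highest Rspo2 cell, with 787 counts, held no Rspo3 and no Sfrp1, and the second, with 509 counts, held 1 count of Rspo3 and no Sfrp1. In all, 4 of the 12 cells high in Rspo2 held no Sfrp1 count. The cell highest in Sfrp1, with 271 counts, held 5 counts of Rspo2 and 1 of Rspo3, and the 9 cells high in Sfrp1 all held Rspo2, from 5 to 489 counts.

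Over all 49 VMP cells, the levels of Rspo2 and Sfrp1 had a Spearman rho of 0.32 and a Pearson r of 0.26 on log2(CPM + 1). The Spearman correlation was 0.16 for Rspo3 with Sfrp1 (Pearson r 0.083) and -0.04 for Rspo2 with Rspo3 (Pearson r 0.0040). The cells shared a pool and a chip, and the rho with the cell's depth was -0.23 for Rspo2, -0.08 for Rspo3 and -0.12 for Sfrp1. Among the cells in which both genes were detected, rho was 0.47 for Rspo2 with Sfrp1 in 38 cells, 0.05 for Rspo2 with Rspo3 in 19 cells and -0.39 for Rspo3 with Sfrp1 in 15 cells. The pair of Rspo3 and Sfrp1 changed sign between the 2 sets of cells, and its relation is therefore not described further. In the 66 SU cells rho of Rspo2 with Sfrp1 was 0.18, and 0.020 in the 20 cells with both. Correlations this weak in sparse counts are given as descriptions only. Rspo3 was in too few SU cells for a correlation.

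**Figure D3:**
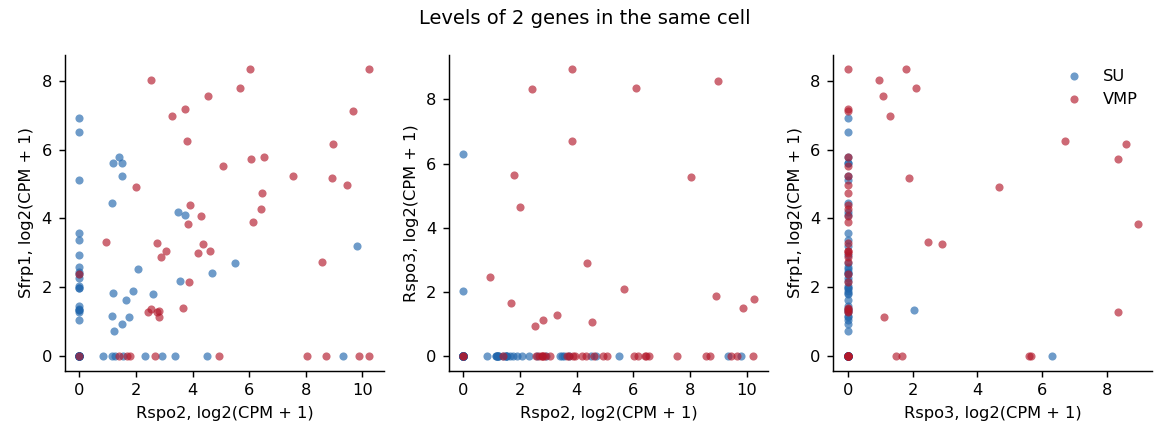
Level of one gene against another in the same cell, both as log2(CPM + 1), with 49 VMP cells in red and 66 SU cells in blue. Rspo2 and Sfrp1 in VMP have a rho of 0.32 with wide scatter, and most cells in the panels with Rspo3 lie on its zero line.

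Among 5778 genes detected in at least 20 VMP cells, 134 had a rho with Rspo2 above that of Sfrp1, which ranked 135th, and seen from Sfrp1 the gene Rspo2 ranked 70th. Rspo3 was less like either, as Sfrp1 ranked 748th and Rspo2 3688th of 5779 genes by rho with Rspo3. The gene most like Rspo2 was ENSRNOG00000017075 (rho 0.54, detected in 24 of 49 cells). The 5 most like Rspo3 included Msmo1, an enzyme of cholesterol synthesis (rho 0.46, in 31 cells), and Boc, a co-receptor for hedgehog ligands (rho 0.45, in 38 cells). The 5 most like Sfrp1 included Gfra2, the receptor for neurturin (rho 0.44, in 35 cells). The other genes among these 15 had no paired symbol. All these values are descriptions over 49 cells of 1 pool.

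For the cell type markers, the VMP cells with at least 50 counts of a gene were set beside all VMP cells, which include them. The epithelial list summed to at most 1.87 CPM in the 12 VMP cells high in Rspo2, at most 1.47 CPM in the 5 high in Rspo3 and 0 CPM in the 9 high in Sfrp1. The mesenchymal list had medians of 13178, 14042 and 12254 CPM in these 3 sets, beside 10672 CPM over all VMP cells. The 2 endothelial markers matched, Cdh5 and Kdr, were also present, with medians of 53.2, 8.67 and 24.7 CPM in the cells high in Rspo2, Rspo3 and Sfrp1 and 46.8 CPM over all VMP cells. Des, the 1 matched smooth muscle marker of 5, had a median of 298 CPM in the 9 cells high in Sfrp1, 2.29 CPM in the 12 high in Rspo2, 0 CPM in the 5 high in Rspo3 and 4.72 CPM over all VMP cells. Over all VMP cells it ran from 0 to 1021 CPM, and from 0 to 791 CPM in those high in Sfrp1, and its part in the Sfrp1 levels was not tested. The skeletal muscle list had medians of 6.03, 8.67 and 7.84 CPM in the 3 sets and 8.52 CPM over all VMP cells. The 2 SU cells high in Rspo2 were mesenchymal by the same list, at 30975 and 50113 CPM, with at most 2.05 CPM of epithelial markers. They held 0 counts of Rspo3 and of Sfrp4, and 4 and 0 counts of Sfrp1. The leukocyte, neural and cycling lists were not analysed here.

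The other genes of the pathway were taken from a list of 83, of which 27 were matched to an identifier, the 3 genes included. Only the study's tables of differentially expressed transcripts paired identifiers with symbols, so the matched genes had been called in at least 1 assay by the study, and their share of calls is not independent evidence. In Tag-seq 13 of the 27 were called higher in VMP and 7 higher in SU, 6 were not called and 1 was not tested, where 8.65% and 13.3% of all tested genes were called higher in VMP and in SU. In RNA-seq 5 were called higher in VMP and 9 higher in SU, 11 were not called and 2 were not tested, where the shares of all tested genes were 10.5% and 12.1%. Higher in VMP in both assays were 5 genes, namely Rspo2, Rspo3, Sfrp1, Sfrp4 and the receptor Fzd7. Higher in SU in both were 3 genes, the ligand Wnt4 and the inhibitors Sostdc1 and Kremen1. No gene was called in opposite directions. Rspo1, Rspo4, the Lgr receptors, Rnf43, Znrf3, Sfrp5 and Frzb were not analysed here.

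The other secreted Frizzled-related proteins did not all follow Sfrp1. Sfrp4 had 1192 and 451 counts in VMP and SU by Tag-seq (log2 ratio 1.33, 1.18 to 1.49) and 906 and 98 counts by RNA-seq (3.66, 3.37 to 3.98), and it was detected in 30 of 49 VMP and 7 of 66 SU cells. Sfrp2, named for the most counts in its role, had 19249 and 6153 counts by Tag-seq (1.58, 1.54 to 1.62). By RNA-seq Sfrp2 had 4304 and 5032 counts (0.23, 0.17 to 0.29) and was not called, and in the cells it was found in every one of the 115 cells with a summed log2 ratio of -0.12 (-0.15 to -0.09). Sfrp1 and Sfrp4 were thus higher in VMP in all 3 assays, and Sfrp2 only in Tag-seq among the calls. The median Sfrp2 level was 153 CPM in the 12 VMP cells high in Rspo2 and 251 CPM in the other 37. It went the other way for the remaining 2 genes. The median was 596 CPM in the 5 cells high in Rspo3, against 203 CPM in the other 44. In the 9 cells high in Sfrp1 it was also 596 CPM, against 203 CPM in the other 40.

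Of the 5 matched Wnt ligands, 1 was called higher in VMP and 2 higher in SU by Tag-seq, and 0 and 2 by RNA-seq. The 1 was Wnt2b, named after its values were seen, with 37 and 5 counts in VMP and SU by Tag-seq (log2 ratio 2.70, 1.47 to 4.52). By RNA-seq Wnt2b had 43 and 55 counts (0.11, -0.51 to 0.71), and it was found in 10 of 49 VMP and 1 of 66 SU cells. Wnt4 and Wnt5a, secreted Wnt ligands, were called higher in VMP in neither bulk assay. Wnt4 had 695 and 12383 counts in VMP and SU by Tag-seq (log2 ratio -4.22, -4.33 to -4.11) and 17 and 71 counts by RNA-seq (-1.57, -2.46 to -0.82), and was found in 44 of 49 VMP and 59 of 66 SU cells. Wnt4 was the member of the list with the largest Tag-seq count in SU, the library with the most epithelial RNA, and the part of the epithelium in that value was not tested. Wnt5a had 217 and 232 counts by Tag-seq (-0.16, -0.44 to 0.11). By RNA-seq it had 105 and 3676 counts (-4.66, -4.96 to -4.39), and in the cells it was found in 30 of 49 VMP and 66 of 66 SU cells. Notum, an enzyme that inactivates Wnt ligands, had 104 and 486 counts by Tag-seq (-2.29, -2.61 to -1.98) and 0 and 10 counts by RNA-seq.

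Of the receptors, Fzd7 had 148 and 51 counts by Tag-seq (log2 ratio 1.46, 1.00 to 1.96) and 53 and 3 by RNA-seq (4.39, 2.98 to 6.92). It was detected in 1 of 49 VMP and 2 of 66 SU cells, so a difference from cell to cell was not detectable. Fzd4 had 458 and 189 counts by Tag-seq (1.21, 0.96 to 1.46) and 132 and 135 by RNA-seq (0.43, 0.07 to 0.78), where it was not called, and it was found in all 49 VMP and 65 of 66 SU cells. All 12 VMP cells high in Rspo2 held Fzd4, with 6 to 21 counts. Ror2, a receptor for Wnt5a, had 621 and 676 counts by Tag-seq (-0.19, -0.35 to -0.03) and 32 and 186 by RNA-seq (-2.06, -2.67 to -1.53).

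Among the inhibitors outside the Frizzled-related family, Sostdc1, which binds Lrp receptors, had 50 and 338 counts by Tag-seq (log2 ratio -2.81, -3.28 to -2.39) and 0 and 23 counts by RNA-seq, and no count in any cell. Kremen1, a receptor for the Dkk inhibitors, had 509 and 1358 counts by Tag-seq (-1.48, -1.63 to -1.34) and 39 and 128 by RNA-seq (-1.24, -1.81 to -0.73). Apcdd1, a membrane inhibitor of Wnt signalling, had 876 and 646 counts by Tag-seq (0.37, 0.22 to 0.52) and 113 and 782 by RNA-seq (-2.33, -2.63 to -2.05). Of the 6 matched secreted inhibitors, 3 were called higher in VMP and 1 higher in SU by Tag-seq, and 2 and 3 by RNA-seq. Of the 3 matched membrane inhibitors, 0 were called higher in VMP in either assay. By Tag-seq 1 of them was called higher in SU, and by RNA-seq all 3 were. Sfrp1 and Sfrp4 were the matched inhibitors called higher in VMP in both assays.

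Inside the cell, the feedback targets did not keep 1 direction. Axin2, a transcript that canonical Wnt signalling raises in most cell types, had 801 and 240 counts in VMP and SU by Tag-seq (log2 ratio 1.67, 1.46 to 1.89) and was called. By RNA-seq it had 18 and 36 counts (-0.52, -1.44 to 0.31) and was not called. It was detected in 6 of 49 VMP and 37 of 66 SU cells. None of the 12 VMP cells high in Rspo2 and none of the 9 high in Sfrp1 held a count of Axin2, beside 6 of the other 37 and 6 of the other 40. Of 5 cells high in Rspo3, 1 held it, with 2 counts. With Axin2 in 6 of 49 VMP cells, 0 cells in sets this small is not read as a lack of Axin2. The sets high in Rspo2 and in Sfrp1 also shared 3 cells, and their limit was chosen after the values were seen. Of the 152 Axin2 counts in VMP cells, 132 lay in 1 cell. Nkd2, a feedback inhibitor, had 661 and 269 counts by Tag-seq (1.23, 1.02 to 1.44) and 55 and 151 by RNA-seq (-0.99, -1.47 to -0.54), where it was not called. Tcf7l1, a Tcf factor that mostly represses, had 3078 and 419 counts by Tag-seq (2.81, 2.66 to 2.96) and 52 and 77 by RNA-seq (-0.10, -0.64 to 0.42). Sp5, a transcriptional target named after its values were seen, went the other way, with 1 and 113 counts by Tag-seq (-6.31, -12.2 to -4.38), where it was called higher in SU, and 0 and 1 by RNA-seq. Dact3, an inhibitor that acts on Dishevelled, had 5626 and 1869 counts by Tag-seq (1.52, 1.45 to 1.60) and 60 and 87 by RNA-seq (-0.07, -0.58 to 0.41). Of the 3 matched feedback targets, 2 were thus called higher in VMP and 1 higher in SU by Tag-seq, and by RNA-seq 2 were not called and 1 was not tested. In the summed single cells all 3 were lower in VMP. The log2 ratio was -1.72 for Axin2 (-1.98 to -1.47) and -0.91 for Nkd2 (-1.17 to -0.66), and Sp5 had 0 counts in VMP and 28 in SU. In SU, 1 cell held 285 of 743 Axin2 counts, 1 held 260 of 487 Nkd2 counts and 1 held 26 of the Sp5 counts.

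**Figure D4:**
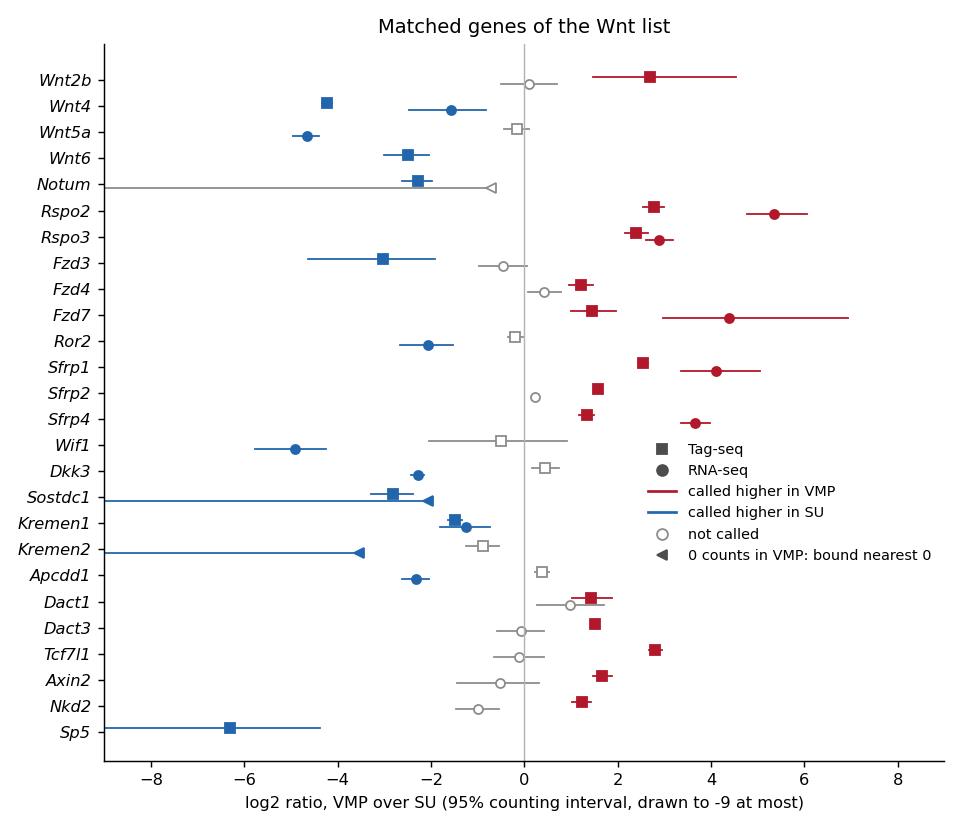
Log2 ratio of VMP over SU with 95% counting intervals for the matched genes of the Wnt list, with squares for Tag-seq and circles for RNA-seq, in red where called higher in VMP, blue where called higher in SU and open grey where not called. Triangles mark genes with 0 counts in VMP, drawn at the end of the interval nearest 0, and Rspo2, Rspo3 and Sfrp1 lie right of 0 with both marks.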

How the data were processed

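Rspo2, Rspo3, Sfrp1 and the Wnt and marker lists were chosen with earlier results of these data known. The authors deposited raw read counts for each Ensembl gene of Rnor_6.0. Per the labels and methods, Tag-seq reads were aligned with Bowtie2, and single-cell reads were trimmed with Trimmomatic 0.33, aligned with TopHat and freed of duplicates with Picard 1.128. The alignment of the bulk RNA-seq is not described apart. Samples were grouped by tissue and assay from their labels. The 95 spike-in rows stayed out of library sizes. The single-cell libraries carried no molecular identifiers, doublets were not removed, and all deposited cells were used.

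Bulk calls used a Python 3.11.15 version of NOISeq without replicates, with TMM scaling, q of at least 0.9 and a filter on CPM (above 1 in 1 or more of the libraries). Log2 ratios had a pseudocount of 0.5 counts, with exact conditional, Poisson or Clopper-Pearson 95% intervals, all for counting error only. A count of 0 was given an upper limit of 3 counts. edgeR 4.0.16 and DESeq2 1.42.0 were fitted with assay as a block to all 4 bulk libraries, after a check on simulated data holding 200 changed genes. Summed cell counts were scaled to CPM. No test was made between tissues from cells. Named pathway genes were the R-spondins and Frizzled-related proteins, the list members called in both assays, and in each role the member with the most counts, over the bulk libraries or over all libraries. Symbols and positions came from the study's tables, which pair 2995 identifiers.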

Additional observations from a re-analysis of the deposited data

How the results depend on the processing

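No paired analysis was possible because each tissue had 1 library within a bulk assay and the numbers of the cells are only capture sites. The fits with the assay as a block are the one exception, as they set VMP against SU within each of the 2 bulk assays. All 39 log2 ratios of the 3 genes under alternative scalings, filters and cell sets stayed above 0, and depth limits Rspo2 and Sfrp1 in SU RNA-seq (22 and 14 counts) and Rspo3 in SU cells (36 counts). By total count only, the Tag-seq log2 ratio of Sfrp1 was 2.67. The summed single-cell log2 ratio of Rspo2 was 2.64 as a mean of per-cell CPM, 2.61 with spike-in scaling, 3.56 without the highest cell of each tissue and, in an alternative added after the data were seen, 5.33 without the 2 highest. That of Rspo3 was 3.999 with spike-in scaling, 8.56 without the highest cell and at least 7.68 without the 2 highest, taken against a floor of 3 counts. That of Sfrp1 was 2.07 with spike-in scaling. The single-cell ratio of ratios, in alternatives also added later, was 1.88 for Rspo2 over Sfrp1 without the highest cells of either gene and 6.47 without the 2 highest, 79.98 and at least 35.1 for Rspo3 over Sfrp1, and 0.022 for Rspo2 over Rspo3 without the highest.

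At q of at least 0.95 Tag-seq called 293 genes for VMP and 931 for SU, RNA-seq called 857 and 1119, and there were 4 Wnt-list genes higher in VMP in Tag-seq. With q of at least 0.9 and an absolute log2 ratio of at least 1.5 the Tag-seq calls were 576 genes higher in VMP, with 8 of the Wnt list. Beside the 218 and 361 genes called higher in VMP and in SU in both assays, edgeR with the assay as a block called 1 and 38 (925 at an unadjusted p under 0.05), and DESeq2 89 and 227.

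The share of VMP cells with Rspo2 was 67.3% at 5 counts, 81.6% after thinning and 24.5% at 50 counts, a limit added after the data were seen. That of Rspo3 was 18.4% at 5 and 10.2% at 50 counts, and that of Sfrp1 48.98% and 18.4%. In SU the share with Rspo2 was 12.1% at 5 counts, 25.8% after thinning and 3.03% at 50 counts, that with Sfrp1 19.7%, 30.3% and 1.52%, and that with Rspo3 0% at 50 counts. VMP cells with Rspo2 and Rspo3 numbered 4 at 5 counts, 10 after thinning and 1 at 50 counts. Those with Rspo2 and Sfrp1 numbered 21 at 5 and 3 at 50 counts, and those with Rspo3 and Sfrp1 numbered 5 and 1. SU cells with Rspo2 and Sfrp1 numbered 1 at 5 counts, 7 after thinning and 0 at 50 counts, and the 1 SU cell with Rspo3 and Sfrp1 fell to 0 in all 3 settings. In cells with both genes detected, rho was 0.47 for Rspo2 and Sfrp1 in VMP and 0.020 in SU, and that of Rspo3 and Sfrp1 turned to -0.39. The cause of these moves was not tested.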
